A study of Mus musculus with 8 samples.

Results

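The conjugation enzymes of phase II metabolism were compared between 4 kidney tumors and 4 control kidneys of mice. The members were all probes of the array whose gene symbol begins with Ugt, Gst followed by a class letter, Mgst or Sult and a number. These were 72 of 25697 probes, and they stand for 52 of 16593 named genes: 16 Ugt genes, 24 glutathione transferase genes and 12 Sult genes. The tumors came from mice with a Lin28 transgene, and their labels name Wilms tumor, an embryonal cancer of the kidney. The controls were normal kidneys. Tumor 1 and control 1 were taken at an age of 5 weeks, and tumors 2 to 4 and controls 2 to 4 at 4 months. Genotype of the controls, strain, sex and the promoter or Cre that drives the transgene are not stated in the labels.

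Phase II enzymes attach a polar group to a drug, toxin, hormone or metabolite, so that it can be excreted. UDP-glycosyltransferases (Ugt) transfer a sugar from a UDP-sugar, usually glucuronic acid. Glutathione transferases couple the tripeptide glutathione to electrophiles, and cytosolic sulfotransferases (Sult) transfer sulfate from the donor PAPS. In the kidney the proximal tubule carries much of this capacity and secretes the conjugates into the urine.

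The deposited values are intensities with some below 0, and their mean was 274 on every array. Above background means brighter than 3 times the noise of the array, which was a limit of 10.7 to 27.6 intensity units. Tests used log2(intensity + 16), with negative intensities taken as 0, so changes of dim genes are understated. A gene with several probes is given by its brightest. Of the 52 genes 34 were bright enough to be tested, and 18 were removed because the mean of their probes lay in the lowest 40% of all probes. The labels call the samples biological replicates, and whether each came from another animal is not stated. The p-values set each difference against the spread between these samples, which may be less than the spread between animals.

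Wt1, a transcription factor gene of the developing kidney, read 2649, 2488, 3488 and 3770.3 in tumors 1 to 4, against 96.2, 211, 140.3 and 204 in controls 1 to 4. All 8 tested markers of nephron progenitors rose (7 under each of the 4 other scalings), and 15 of 16 markers of the proximal tubule fell. Tumor 1 stood apart from the other tumors, since its proximal tubule markers summed to 63061 intensity units, against 3404 to 7977 in tumors 2 to 4 and 73247 to 109609 in controls. Its nephron progenitor markers, with 3095 units, lay within the range of 1503 to 5694 in tumors 2 to 4 and above the 82.5 to 415 of controls. Xist, which coats the silenced X in female cells, read 213, 155, 223 and 301 in tumors 1 to 4 and 7.0, 34.8, 2.2 and 8.1 in controls. The Y-linked gene Kdm5d read 4.6, 1.0, -0.4 and 2.8 in tumors and 44.9, -5.6, 44.7 and 53.7 in controls. Control 2 was the control with the highest Xist and without Kdm5d above background. Differences by tumor and by sex therefore cannot be told apart here. The median change of all 11413 tested genes and unnamed probes was 0.35 on the log2 scale with the deposited scaling, and between -0.22 and 0.05 with other scalings. Of all calls 72.6% were rises with the authors' scaling, 50.1% with cyclic loess and 30.4% with arrays scaled to the same median.

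Most of the conjugation enzymes that changed were lower in the tumors. With limma and an adjusted p under 0.05, 17 of the 34 tested genes were called (44.4% of all tested genes were). Of these, 16 of the 34 tested genes fell (12.2% of all tested genes fell) and 1 rose (32.2% of all tested genes rose). Both shares moved with the scaling. With arrays scaled to the same median 21 members and 29.4% of all tested genes fell. With cyclic loess these were 19 members and 18.7%, with quantile normalization 17 and 16.8%, and with normexp and quantile normalization 14 and 16.2%. The median change of the 34 genes was -1.10 on the log2 scale, or -1.45 relative to the median of all tested genes. By family, 6 of 8 tested Ugt genes, 8 of 21 glutathione transferase genes and 2 of 5 Sult genes fell. For 11 of the 16 fallen genes the tumors did not overlap with the controls (10.2% of all tested genes were lower without overlap), and for the gene that rose they did not overlap either (30.1% of all tested genes were higher without overlap). On the arrays of 4 months alone 18 members fell (13.4% of all tested genes) and 1 rose (29.5%). When tumor 1 and control 2 were both left out, which was chosen after the data had been seen, 18 fell (15.4% of all tested genes) and 5 rose (36.1%). In whole tissue, fewer cells of a type and less RNA per cell cannot be told apart.

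**Figure D1:**
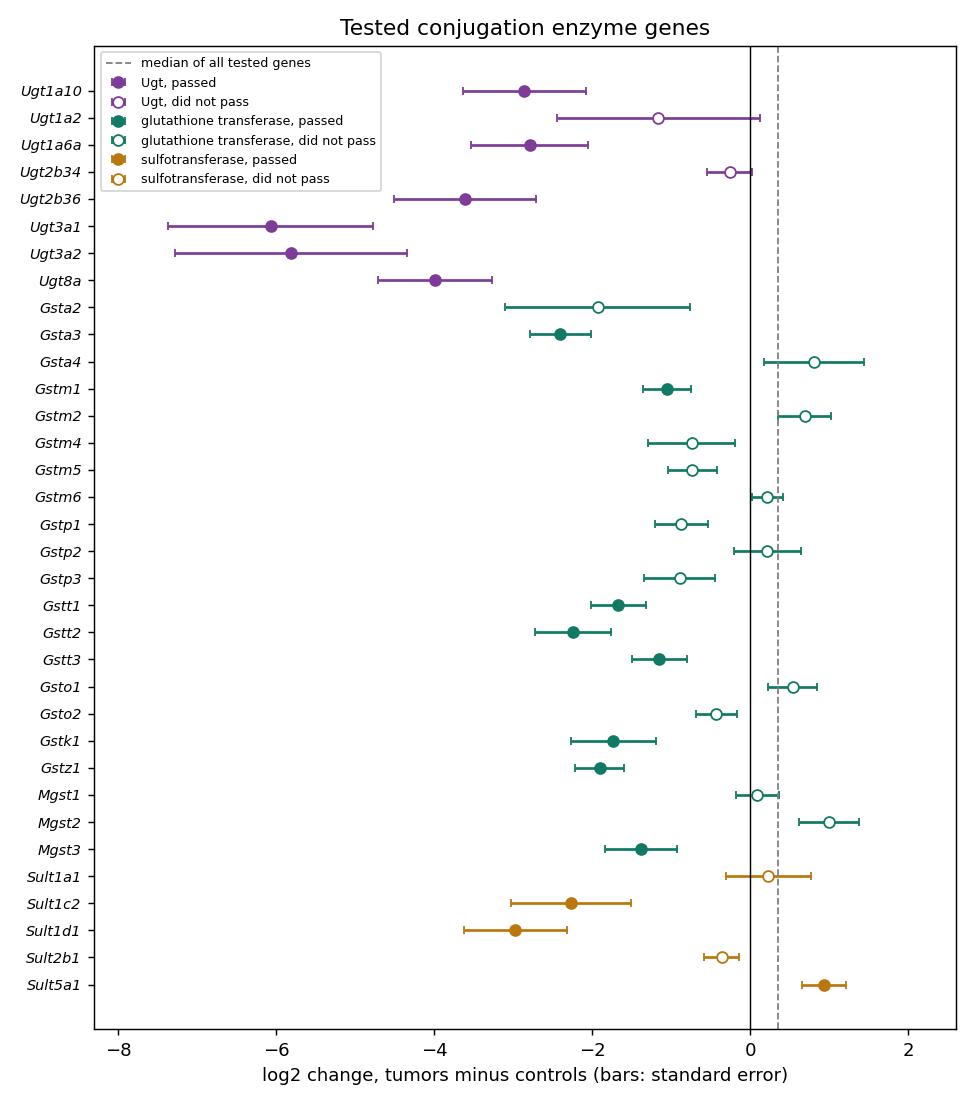
Log2 change of each of the 34 tested genes, tumors minus controls (x axis), with genes grouped by family and class down the page. Bars are standard errors, filled points passed limma's test, and the dashed line is the median of all tested genes (0.35); 16 filled points lie left of 0 and 1 right of it.

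The stretch of DNA around the transcription start is shown for those of the fallen genes whose window holds the letters GTTAAT, the core of the sequence bound by HNF1, a transcription factor of the proximal tubule and liver. The windows are from RefSeq (GRCm38.p6) and run from 250 bases before to 50 bases after the start. They were found for 48 of the 52 genes, of which some have several windows. The sequences are in lower case, and capitals mark GTTAAT on either strand and, in Gsta3, also TGACNNNGC, the antioxidant response element that binds Nrf2.
Ugt3a1 (chr15:9279579-9279878, plus strand): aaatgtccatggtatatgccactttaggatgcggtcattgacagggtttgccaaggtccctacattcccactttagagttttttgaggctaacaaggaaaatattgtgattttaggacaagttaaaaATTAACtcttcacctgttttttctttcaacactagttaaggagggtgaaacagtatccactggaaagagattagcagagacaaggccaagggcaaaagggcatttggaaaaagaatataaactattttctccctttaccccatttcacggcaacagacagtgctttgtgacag
Ugt1a10 (chr1:88055161-88055460, plus strand): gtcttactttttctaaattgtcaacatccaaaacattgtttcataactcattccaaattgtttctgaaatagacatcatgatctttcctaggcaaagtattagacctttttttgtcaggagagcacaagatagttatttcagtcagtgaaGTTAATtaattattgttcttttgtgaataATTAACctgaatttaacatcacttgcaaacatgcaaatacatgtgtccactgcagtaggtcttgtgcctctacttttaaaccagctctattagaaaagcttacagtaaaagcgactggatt
Ugt1a6a (chr1:88134559-88134858, plus strand): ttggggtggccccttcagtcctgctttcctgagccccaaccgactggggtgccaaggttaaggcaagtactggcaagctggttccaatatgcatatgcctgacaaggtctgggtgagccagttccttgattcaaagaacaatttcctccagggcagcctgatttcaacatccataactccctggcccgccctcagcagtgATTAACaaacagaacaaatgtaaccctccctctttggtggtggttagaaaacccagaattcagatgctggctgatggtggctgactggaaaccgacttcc
Gsta3 (chr1:21240335-21240634, plus strand): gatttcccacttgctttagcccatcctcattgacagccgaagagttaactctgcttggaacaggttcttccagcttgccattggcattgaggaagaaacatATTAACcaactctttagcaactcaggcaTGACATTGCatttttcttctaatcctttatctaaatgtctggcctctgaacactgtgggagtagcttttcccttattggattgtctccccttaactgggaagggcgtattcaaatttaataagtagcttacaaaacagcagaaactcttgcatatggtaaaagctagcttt
Sult1d1 (chr5:87568957-87569256, minus strand): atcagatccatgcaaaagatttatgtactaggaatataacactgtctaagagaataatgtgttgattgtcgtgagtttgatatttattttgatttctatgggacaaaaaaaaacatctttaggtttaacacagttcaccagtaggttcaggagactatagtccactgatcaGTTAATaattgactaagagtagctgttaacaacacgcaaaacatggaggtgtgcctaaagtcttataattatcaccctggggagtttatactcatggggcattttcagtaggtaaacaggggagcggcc
The letters GTTAAT occurred on either strand in 2332 of 32851 windows of all genes (7.1%). Of the 59 windows of the members 8 held them. Counted by gene, 5 of the 14 fallen genes with a window held them, namely those printed, and 8 of all 48 genes with a window did. The other three were Sult1a1, which did not pass the test, and Sult2a6 and Ugt2a3, which were not tested. TGACNNNGC was found in 4071 of all windows (12.4%) and in 3 of the 59 windows of the members. By gene these were 3 of the 48, Gsta3, Gstm5 and Mgst1. The shares of all genes with a match were not counted, so the counts by gene cannot be set beside the shares of windows. The 2 motifs share no bases in the windows shown. These matches describe the letters of the windows, and binding was not measured.

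The largest falls of the whole set were those of Ugt3a1 and Ugt3a2, neighbouring genes in GRCm38.p6. Their human counterparts use UDP-N-acetylglucosamine and UDP-glucose as sugar donors. Ugt3a1 read 2766, 37.2, 11.9 and 19.8 in tumors 1 to 4, against 8862, 5515, 10875 and 5586 in controls 1 to 4. Tumor 1 lay far above the other tumors and still below every control. Ugt3a1 fell by 6.07 ± 1.30 (SE) in log2 units, a 67.1-fold difference (adjusted p = 0.00645, limma). Without tumor 1 this was 197-fold and without tumor 3 it was 42.5-fold. Ugt3a2 read 7567, 169.5, 13.8 and 50.6 in tumors, against 20268, 10439, 15867 and 8242 in controls, again with tumor 1 far above tumors 2 to 4 and the groups apart. Ugt3a2 fell by 5.81 ± 1.47, or 56.2-fold (adjusted p = 0.0127), which was 180-fold without tumor 1, 28.4-fold without tumor 3 and 37.3-fold without tumor 4. The sequences of the 2 genes are alike, and whether each probe tells them apart is not stated.

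Ugt8a makes galactosylceramide, a lipid of myelin and of kidney membranes, and is no drug-conjugating enzyme although it belongs to the Ugt family. It read 25.7, 32.0, 48.2 and 6.2 in tumors, against 1173, 115, 1575 and 722 in controls. The lowest control, control 2, was above all tumors, and Ugt8a fell by 3.99 ± 0.72 (adjusted p = 0.00328), with a change of -4.76 without control 2. Ugt2b36, of the subfamily that conjugates steroids and bile acids, read 27.0, 5.3, 13.5 and 3.7 in tumors, of which only tumor 3 was above background, against 1184, 32.1, 859 and 219.6 in controls. Control 2 was again the lowest control, not far above tumor 1, and Ugt2b36 fell by 3.61 ± 0.90 (adjusted p = 0.0119), with a change of -4.54 without control 2 and -2.99 without control 1. A second probe of Ugt2b36 was above background on no array, controls included, and was removed as dim. Ugt8a and Ugt2b36 were those of the 6 fallen Ugt genes in which tumor 1 lay near tumors 2 to 4.

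The Ugt1a genes form a run of neighbours in which, as is well known, each has its own first exon and all share the remaining exons. Ugt1a6a, which conjugates planar phenols, read 370.1, 31.8, 15.7 and 12.3 in tumors, against 449.7, 348, 401 and 512 in controls. Tumor 1 lay within the range of the controls and tumors 2 to 4 lay far below it. The change was -2.79 ± 0.74 (adjusted p = 0.0156), while 2 dimmer probes of the gene differed by 0.54 and -0.14 and did not pass. With the mean of its probes the change of Ugt1a6a was -0.80 (adjusted p = 0.101), and without tumor 1 it was -3.65. Ugt1a10 read 3789.9 in tumor 1 and 242 to 412 in tumors 2 to 4, against 2521 to 6093 in controls, a change of -2.86 ± 0.78 (adjusted p = 0.0174, or 0.0508 without tumor 3) that was -3.74 without tumor 1. Ugt1a2 behaved differently among the controls, with 195, 14.2, 6.0 and 4.8 in tumors against 0.8, 484, 3.8 and 424 in controls. Controls 1 and 3 were under background and controls 2 and 4 well above it, and the difference did not pass (-1.16 ± 1.29, adjusted p = 0.492). Which exons the Ugt1a probes lie in is not stated.

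The Ugt2 genes and the neighbouring Sult genes lie in a run of 13 members, all on the array, of which 3 were tested. Ugt2b34 was above background on 2 controls and on no tumor (-0.26 ± 0.29). Ugt2a1, Ugt2a2, Ugt2a3, Ugt2b1, Ugt2b5, Ugt2b35, Ugt2b37 and Ugt2b38 were above background on no array and were not tested.

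**Figure D2:**
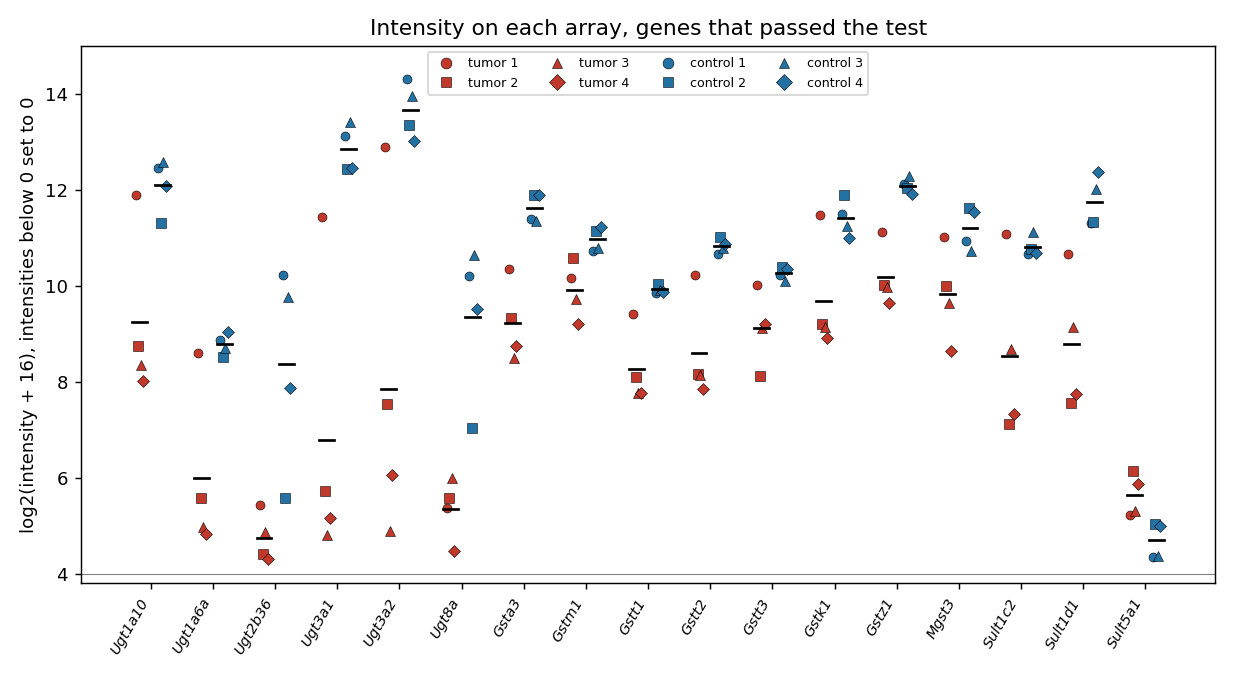
Intensity on each array, as log2(intensity + 16), for the 17 genes that passed the test, with tumors left (red) and controls right (blue) of each gene and symbols for the sample numbers. Short lines are group means; in 11 of the 16 fallen genes all tumors lie below all controls, and tumor 1 (red circle) is the highest tumor in 14 of them.

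Among glutathione transferases the alpha class conjugates products of lipid peroxidation and acts on steroids. Gsta3, known in mice for the conjugation of aflatoxin epoxide, read 1288, 626, 347 and 411 in tumors, against 2671, 3788, 2607 and 3773 in controls. Every tumor lay below every control, and Gsta3 fell by 2.40 ± 0.39, or 5.29-fold (adjusted p = 0.00194). A second, dimmer probe of Gsta3 fell by 1.22 (each probe tested by itself, where 11.5% of all kept probes fell). Gsta2 was spread over a wide range in both groups, with 852, 28.8, 38.2 and 4.9 in tumors against 166, 1548, 138 and 194 in controls. The highest tumor was tumor 1 and the highest control was control 2, and the difference did not pass (-1.93 ± 1.17, adjusted p = 0.206). It passed without tumor 1 (-3.07, adjusted p = 0.0127) and at 4 months alone (-3.32, adjusted p = 0.0207). Gsta1, a close relative that was too dim to be tested, was above background only on control 2, with 33.4. Gsta4, which conjugates hydroxynonenal, read 422, 762, 465 and 351 in tumors, against 128, 1155, 127 and 249 in controls. Without control 2 all tumors were above the controls, and the difference was 1.49 (adjusted p = 0.0102) instead of 0.81 ± 0.63 (adjusted p = 0.323).

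All 3 tested genes of the theta class fell, whose enzymes act on small halogenated compounds, and in each the groups did not overlap. Gstt2 read 1184, 270.3, 268 and 213 in tumors, against 1604, 2059.7, 1743 and 1867 in controls, and Gstt2 fell by 2.24 ± 0.48, or 4.72-fold (adjusted p = 0.00614). Gstt1 read 665, 259, 203 and 201 in tumors, against 912, 1044, 956 and 928 in controls, and Gstt1 fell by 1.67 ± 0.35 (adjusted p = 0.00600). In both genes tumors 2 to 4 were close together and tumor 1 lay between them and the controls. Gstt3 read 1019, 262, 546 and 577 in tumors, against 1181, 1330.2, 1079.9 and 1292 in controls, and Gstt3 fell by 1.15 ± 0.35 (adjusted p = 0.0273). This call was lost when either tumor 3 or 4 or any control was left out (adjusted p up to 0.0608). These genes and Gstt4, which was above background on no array, are neighbours.

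The other classes with a single gene on the array also fell. Gstz1, the zeta enzyme, is maleylacetoacetate isomerase of tyrosine breakdown, and it read 2218, 1015, 989.9 and 781 in tumors, against 4422, 4200.3, 4975 and 3844 in controls. All tumors lay below all controls, and Gstz1 fell by 1.90 ± 0.31, or 3.74-fold (adjusted p = 0.00200). Gstk1, the kappa enzyme of mitochondria and peroxisomes, read 2835, 574, 550.3 and 467 in tumors, against 2897, 3796, 2399.6 and 2042 in controls. Tumor 1 lay among the controls and tumors 2 to 4 well below, with a change of -1.73 ± 0.54 (adjusted p = 0.0283). The call for Gstk1 was lost when any of tumors 2 to 4 or controls 1 to 3 was left out (adjusted p up to 0.0767), while without tumor 1 the change was -2.32 (adjusted p = 1.94e-04).

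The mu class had 1 fall among 5 tested genes. Gstm1 read 1128, 1516, 837 and 573 in tumors, against 1678, 2260.2, 1756 and 2374 in controls. The groups did not overlap, and Gstm1 fell by 1.05 ± 0.30, or 2.08-fold (adjusted p = 0.0199, or 0.0554 without tumor 3 and 0.0513 without control 4). A dimmer probe of Gstm1 differed by -0.02. Its neighbour Gstm2 read 2404, 3923, 3984 and 3823 in tumors, against 1514, 3769, 1404 and 2638 in controls. The difference of 0.69 ± 0.34 did not pass (adjusted p = 0.132), its 2 other probes differed by 0.72 and 0.86, and without control 2 it was 0.96 (adjusted p = 0.0330). With arrays scaled to the same median it was -0.10. Gstm5 differed by -0.73 ± 0.31 (adjusted p = 0.0893), and by -0.95 without tumor 1 (adjusted p = 0.0222). Under median scaling Gstm5 differed by -1.51 (adjusted p = 0.0028). Gstm4 read between 61.5 and 96.8 in tumors 2 to 4 and between 70.0 and 102 in controls, while tumor 1 read -54.3 (-0.74 ± 0.55, adjusted p = 0.304). Gstm6 read 60.3 to 104 in tumors and 49.7 to 63.4 in controls, and Gstm3 was above background on no array. Members of this class are alike in sequence, so probes may share signal.

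Gstp1, the pi enzyme that is abundant in many tumors, did not pass the test. It read 925, 964, 1376 and 2091 in tumors, against 3431, 1677, 3033 and 1697 in controls. Tumor 4 overlapped with controls 2 and 4, and the difference of -0.87 ± 0.34 did not pass (adjusted p = 0.0668), although it did without tumor 4 (-1.11, adjusted p = 0.0323) and after scaling every array to 1 median (-1.65, adjusted p = 0.00751). Gstp2 read 15.5 to 144 in tumors and 32.8 to 40.7 in controls, and Gstp3 was above background on no tumor and on 2 controls. Gstp3 differed by -0.89 ± 0.45 (adjusted p = 0.135). It passed as a fall with cyclic loess (-1.23, adjusted p = 0.0488) and quantile normalization (-1.18, adjusted p = 0.0473). The 3 pi genes are neighbours. How far their sequences are alike was not computed, so whether each probe tells them apart is not known. In the omega class Gsto1, which reduces dehydroascorbate, read 764, 1133, 1223 and 1012 in tumors, against 531, 1125, 448 and 861 in controls, a difference of 0.54 ± 0.31 that did not pass (adjusted p = 0.181) and was -0.23 with arrays scaled to the same median. Gsto2 read 14.1 to 19.7 in tumors and 15.7 to 57.0 in controls (-0.43 ± 0.26, adjusted p = 0.199). It passed as a fall with median scaling, cyclic loess and quantile normalization (-0.91 to -0.85, adjusted p = 0.0229 to 0.0255).

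Of the 3 microsomal transferases, membrane proteins of another origin that handle lipid peroxides and leukotrienes, 1 fell. Mgst3 read 2059.6, 1003, 781 and 387 in tumors, against 1939.6, 3148, 1680.4 and 2973 in controls. Tumor 1 lay among the controls, and the change was -1.38 ± 0.46 (adjusted p = 0.0375; a second probe -1.44). Leaving out any of the arrays but tumor 1 ended the call (adjusted p up to 0.0869). Mgst1 read 1174 to 1580.4 in tumors and 898 to 2159 in controls, which is a difference of 0.09 ± 0.27 (adjusted p = 0.801), and of -0.69 under median scaling (adjusted p = 0.0435). Mgst2 was dim, with 14.5, 77.8, 16.4 and 22.3 in tumors against 2.0, 16.5, 1.2 and 6.0 in controls, and did not pass (1.00 ± 0.38, adjusted p = 0.0594).

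The sulfotransferases held 2 falls and 1 rise among 5 tested genes. Sult1d1, which in mice sulfates catecholamines and other phenols, read 1617, 172, 550.4 and 199.6 in tumors, against 2509, 2543, 4112 and 5324 in controls. All tumors lay below all controls, and Sult1d1 fell by 2.97 ± 0.65, or 7.85-fold (adjusted p = 0.00679), and 12.1-fold without tumor 1. A second probe of Sult1d1, above background on no array, differed by 0.48. Sult1c2 read 2145, 123, 394 and 144 in tumors, against 1615, 1723, 2230.1 and 1641 in controls. Tumor 1 lay among the controls and the other tumors below them, a change of -2.27 ± 0.76 (adjusted p = 0.0389) that did not pass once any of the arrays but tumor 1 was dropped (adjusted p up to 0.102). Without tumor 1 the change of Sult1c2 was -3.11.

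The member that rose was Sult5a1. It read 21.2, 54.5, 23.6 and 42.8 in tumors, against 4.5, 17.1, 4.7 and 16.1 in controls, so that the groups did not overlap but all values were low. The rise of 0.94 ± 0.28 on the log2 scale (adjusted p = 0.0241) was 0.59 relative to the median of all tested genes. With the 4 other scalings Sult5a1 differed by 0.25 to 0.56 and did not pass (adjusted p = 0.146 to 0.199). Sult1a1, which sulfates simple phenols, read 354 to 776 in tumors and 164 to 961 in controls (0.23 ± 0.54, adjusted p = 0.752). Sult2b1, which sulfates cholesterol, read 10.4 to 19.9 in tumors and 13.2 to 35.4 in controls (-0.36 ± 0.22, adjusted p = 0.219). With the 4 other scalings Sult2b1 differed by -0.79 to -0.33 and passed as a fall (adjusted p = 0.0167 to 0.0384). Dimmer probes of Sult2b1 differed by 0.43 and -0.26 with the deposited scaling and did not pass. Sult1b1, Sult1c1, Sult1e1, Sult2a6, Sult2a8 and Sult3a1 were above background on no array. Sult4a1 was above background only on tumor 2, with 22.9, and these 7 genes were not tested. In all, 16 of the 18 untested genes were above background on no array.

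How far the tumors differed among themselves was seen in each tumor's intensity as a share of the control mean. In Ugt1a6a tumor 1 reached 86.5%, against 2.87% to 7.43% in tumors 2 to 4. In Sult1c2 tumor 1 reached 119%, against 6.80% to 21.9% in the others. In Ugt3a2 the shares were 55.2% in tumor 1 and 0.101% to 1.24% in the others. Tumors 2 to 4 lay below every control in all 16 fallen genes, which were chosen by that difference, and in 96% of all tested genes that fell. Tumor 1 was within the range of the controls in 5 of the 16, and in 20% of all tested genes that fell. Tumor 1 was the highest tumor in 14 of the 16, and also in 78.4% of all tested genes that fell. Its proximal tubule markers, given above, also summed to more than those of tumors 2 to 4 and to less than those of any control, and their part in these differences was not tested.

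**Figure D3:**
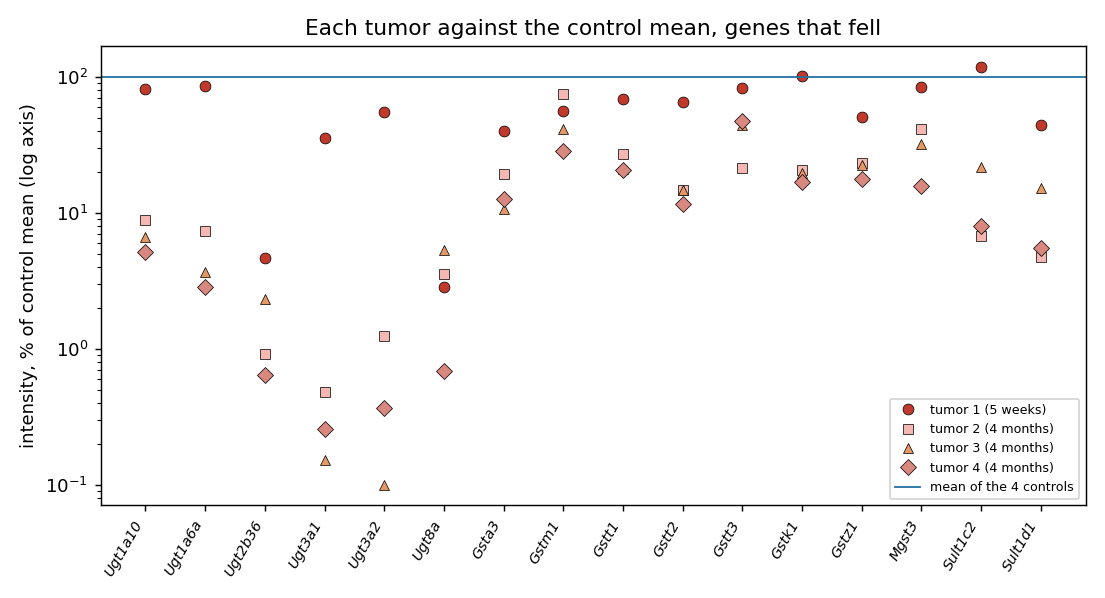
Intensity of each tumor as % of the mean of the 4 controls (log axis), for the 16 genes that fell, with values under background included as measured. Tumor 1 (5 weeks) lies above tumors 2 to 4 (4 months) in all genes but Ugt8a and Gstm1.

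Whether the difference between tumor and control changes with age was asked with an interaction of group and age. The test rests on 1 tumor and 1 control at 5 weeks, whose spread is taken to be that of the older arrays, so age and the single tumor cannot be told apart. It called 3 of the 34 genes (1.48% of all tested genes were called). The difference at 5 weeks was higher than that at 4 months by 5.86 ± 0.72 in Ugt3a1 (adjusted p = 0.00985), by 3.35 ± 0.53 in Ugt1a6a (adjusted p = 0.0314) and by 2.41 ± 0.38 in Gstt2 (adjusted p = 0.0307). The call for Ugt1a6a was lost with cyclic loess (adjusted p = 0.0607). Ugt3a2 had the same size of interaction as Ugt3a1, 5.86 ± 1.27, and did not pass (adjusted p = 0.101).

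Genes that supply the donors for conjugation were counted from a list. Of 6 tested genes for the synthesis of UDP-glucuronic acid, PAPS and glutathione 3 fell and 0 rose, and with the 4 other scalings 4 to 6 fell. Gss, glutathione synthetase, read 488, 59.0, 85.2 and 46.2 in tumors, against 734, 540.0, 788 and 454 in controls (-2.34 ± 0.60, adjusted p = 0.0134; -3.02 without tumor 1), with tumor 1 in the range of the controls. Papss2, a synthase of the sulfate donor PAPS, read 275, 17.8, 34.0 and 23.7 in tumors, against 234, 275, 369 and 232 in controls (-2.12 ± 0.62, adjusted p = 0.0225). The call for Papss2 was lost without tumor 2, 3 or 4 or control 3 (adjusted p up to 0.0627), and without tumor 1 the change was -2.83. Ugdh, which makes UDP-glucuronic acid, was above background on no array.

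Of 11 tested genes that process glutathione conjugates into mercapturates or break down glutathione 7 fell and 1 rose. With the 4 other scalings 7 or 8 of them fell and 0 rose. Nat8, which acetylates cysteine conjugates in the proximal tubule, read 936, 30.5, 57.4 and 31.2 in tumors, against 7765, 1112, 6627 and 5394 in controls, and Nat8 fell by 5.24 ± 1.01 (adjusted p = 0.00418), with a change of -6.28 without tumor 1 and -5.88 without control 2. Kyat1, a lyase of cysteine conjugates, fell by 2.47 ± 0.40 (adjusted p = 0.00210). Ggt5, a glutamyl transferase that acts on leukotriene C, rose by 1.00 ± 0.31 (adjusted p = 0.0298). Ggt5 did not pass with any of the 4 other scalings (adjusted p = 0.184 to 0.211). Nor did it pass without tumor 2 or 3 or control 1 or 3 (adjusted p up to 0.0722). Of 11 tested acetyl, methyl and acyl transferases 3 fell and 1 rose, and with the 4 other scalings 4 to 6 fell and 0 rose (7 and 1 without tumor 1 and control 2). Glyat, which conjugates benzoate with glycine, fell by 3.28 ± 0.56 (adjusted p = 0.00258), with a change of -3.92 without tumor 1. Acsm5, an acyl-CoA synthetase, fell by 3.23 ± 0.97 (adjusted p = 0.0250), with a change of -4.31 without tumor 1, and this call was lost without tumor 2, 3 or 4 or control 1, 2 or 3 (adjusted p up to 0.0693). Nnmt, which methylates nicotinamide, rose by 1.80 ± 0.62 (adjusted p = 0.0413). This call was lost with each of the 4 other scalings (adjusted p = 0.113 to 0.147). It was also lost when tumor 2 or 3 or control 1, 3 or 4 was left out (adjusted p up to 0.110). A list drawn up for deconjugation held 5 tested genes, Gusb, Arsa, Arsb, Arsg and Hpse, of which 2 fell and 1 rose. Whether these enzymes act on phase II conjugates was not examined. The sulfatases Arsb and Arsg fell by 2.13 ± 0.45 and 1.85 ± 0.51. Hpse, heparanase, rose by 1.25 ± 0.36 (at least 1.74-fold, since all controls were under background). The call for Hpse was lost with the 4 other scalings (adjusted p = 0.0614 to 0.144) and without control 1 (adjusted p = 0.0549). The call for Arsg was lost without tumor 3 or 4 or control 1 or 3 (adjusted p up to 0.0546).

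Relatives of the families outside the symbol rule were also counted. Of 15 tested sulfotransferases for carbohydrates and protein tyrosines 9 rose and 2 fell with the authors' scaling, while with the 4 other scalings 3 or 4 rose and 2 or 3 fell. Chst1, which sulfates keratan, rose by 2.10 ± 0.47 (adjusted p = 0.00768) and Tpst1, a tyrosine sulfotransferase, by 2.08 ± 0.34 (adjusted p = 0.00214). Gal3st1, which sulfates the galactosylceramide that Ugt8a makes, fell by 1.56 ± 0.41 (adjusted p = 0.0145), with 266, 78.9, 149.9 and 61.1 in tumors against 319, 558, 296 and 411 in controls. Hs6st1, which sulfates heparan, fell by 0.51 ± 0.18 (adjusted p = 0.0460). Hs6st1 did not pass once any of the arrays but tumor 1 was dropped (adjusted p up to 0.122), with age as a covariate (adjusted p = 0.0511), with 4 added in place of 16 (adjusted p = 0.0636) and with the replicate block (adjusted p = 0.0865). Of 8 tested genes related to glutathione transferases 4 rose and 0 fell, and with the 4 other scalings 1 to 3 rose. Hpgds, the sigma enzyme that makes prostaglandin D, rose by 1.14 ± 0.23 (adjusted p = 0.00498) and Eef1g, a translation factor with a transferase-like domain, by 1.09 ± 0.20 (adjusted p = 0.00335). Hpgds did not pass with normexp and quantile normalization (adjusted p = 0.0530), nor Eef1g under median scaling (adjusted p = 0.278).

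**Figure D4:**
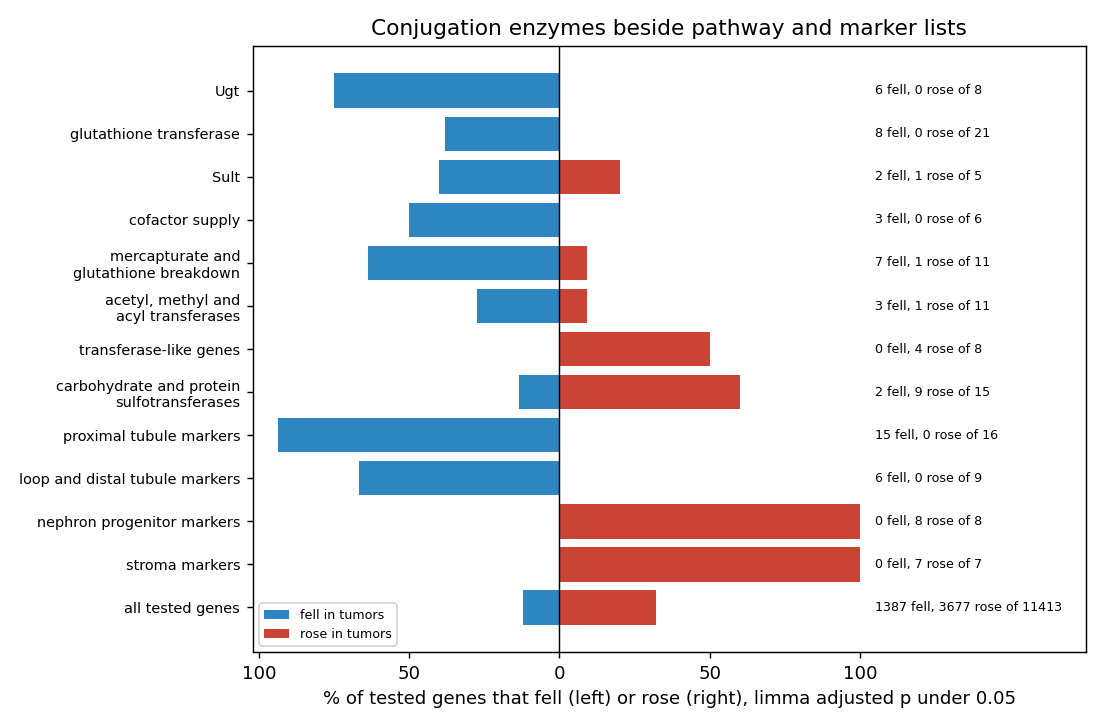
Share of the tested genes of each list that fell (left of 0) or rose (right of 0) in tumors, with the counts printed at the right. The 3 enzyme families stand at the top, related pathway lists and cell type markers below, and all 11413 tested genes at the bottom (12.2% fell, 32.2% rose).

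Of 12 tested regulators of these genes 3 fell and 2 rose, and with the 4 other scalings 4 to 6 fell and 0 or 1 rose. Hnf4a, a transcription factor of the proximal tubule and liver, read 1378, 193, 339 and 186 in tumors, against 2459.6, 2212, 2009 and 2139 in controls, and Hnf4a fell by 2.54 ± 0.55 (adjusted p = 0.00685), with a change of -3.17 without tumor 1. Ppara, the fatty acid receptor, fell by 1.15 ± 0.23 (adjusted p = 0.00530), with all tumors under background, which makes it at least 1.36-fold lower. Arnt, the partner of the dioxin receptor, rose by 1.11 ± 0.27 and Foxa3 by 1.01 ± 0.23. Both missed the threshold with cyclic loess and with both quantile settings, and Arnt also with median scaling (0.64, adjusted p = 0.104). Nfe2l2, the gene of Nrf2, and its inhibitor Keap1 differed by 0.27 ± 0.23 (adjusted p = 0.368) and -0.02 ± 0.18 (adjusted p = 0.953). Of 8 tested targets of Nrf2 outside the families 2 fell and 0 rose, and with the 4 other scalings 1 to 3 fell. Nqo1, a quinone reductase, read 44.9, 60.2, 47.8 and 23.9 in tumors, against 277, 168, 331 and 316 in controls, and Nqo1 fell by 2.26 ± 0.28 (adjusted p = 5.92e-04), and here tumor 1 lay among the other tumors. The other fall was that of Taldo1. Its call was lost with both quantile settings (adjusted p = 0.0648 and 0.0946). It was also lost without tumor 3 or 4 or control 1 or 3 (adjusted p up to 0.0751).

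Markers of cell types moved with these groups. Of the 16 tested markers of the proximal tubule 15 fell, with a median of -3.14, and 6 of 9 markers of the distal tubule and Henle's loop and 5 of 9 of the collecting duct fell. Of the proximal tubule markers Lrp2 was at or under background in all tumors, and Slc5a2, Slc22a8, Gatm and Acsm2 in all but tumor 1. Of markers of other cells 7 of 7 tested for stroma, 5 of 6 for macrophages and 3 of 4 for podocytes rose, and with the 4 other scalings these were 6 or 7, 2 to 4 and 3. Of 8 tested for endothelium 0 were called, and 2 fell with arrays scaled to the same median. Of 5 tested hepatocyte genes 1 rose and 1 fell, and Alb was above background on no array. The 5 hepatocyte genes summed to 3679 intensity units in tumor 1. Their sums were 84 to 191 in tumors 2 to 4 and 85.3 to 1222 in controls. The part of these cell types in the changes of the conjugation enzymes was not tested.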

How the data were processed

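The 8 arrays measured RNA of whole kidney tissue (4 tumors, 4 controls). The authors deposited one intensity per probe, background-subtracted and scaled to the same mean, as the values show; the software is not stated. A second table was not used, because its 16 columns matched no sample. Probes were named through the platform annotation (23978 of 25697 had 1 symbol and 1719 none). Negative intensities were raised to 0 before log2(intensity + 16). Probes in the lowest 40% by mean were removed, and the brightest of the remaining probes stood for its gene. The comparison used limma's linear model with eBayes (limma 3.58.1, R 4.3.3; two-sided, Benjamini-Hochberg over all 11413 genes and unnamed probes, threshold 0.05), which was tested on simulated data. Alternatives were 4 other scalings, other values added, other filters and probe rules, array weights, age, a replicate block and leaving out each array. The number of arrays limits the precision.

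The members, the gene lists and the tests were chosen with earlier results of these data known. Every member is named. Values on each array are given for up to 4 falls and 3 rises per family or class, or its smallest p where none was called, and for others where the arrays differ; of each further list up to 2 genes are named each way. Proteins were not used here.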

Additional observations from a re-analysis of the deposited data

Results flagged for a closer look

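Of 68 groups of 4 arrays (34 genes, tumors and controls) 8 had 1 array further from the rest than Dixon's 95% critical value allows, with the gap given as a share of the range, and chance alone passes it in about 1 in 20 groups. Tumor 1 was that array in Gstm2 (0.918), where it was the lowest tumor, and in Gstk1 (0.887), Gstt2 (0.866), Ugt3a1 (0.860) and Ugt1a2 (0.839), where it was the highest. Tumor 2 was the highest tumor in Sult1a1 (0.960). Control 2 was the highest control in Gsta2 (0.866) and the lowest in Gstm6 (0.920).

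The difference between tumor and control was higher at 5 weeks than at 4 months by 5.86 in Ugt3a1, by 3.35 in Ugt1a6a and by 2.41 in Gstt2 on the log2 scale, by limma's interaction term with 1 tumor and 1 control at 5 weeks. What sets tumor 1 apart was not tested.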

How the results depend on the processing

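Of 16 falls 9 (Gsta3, Gstt1, Gstt2, Gstz1, Sult1d1, Ugt2b36, Ugt3a1, Ugt3a2 and Ugt8a) were lost in 0 of 24 alternatives. With no filter 10 members fell, of them 5 glutathione transferases and 1 Sult gene, and 12 members had an interaction with age. Of all genes and unnamed probes 1136 fell without the filter, against 1387 with it. How many of them had an interaction without the filter was not counted, so the 12 cannot be set beside a share of all genes. Of the 18 members that the filter removes 16 were above background on no array. More genes are tested without the filter, and the cause of the different counts was not tested. The members that rose (1) were 0 with median scaling, cyclic loess, quantile normalization and normexp with quantile normalization, where no Sult gene (0) rose, 2 with 4 added, 2 with the replicate block, 6 with array weights, and 5 when both tumor 1 and control 2 were left out (chosen after seeing the data). With these 4 settings 1, 1, 5 and 4 glutathione transferases rose. Of all 11413 tested genes 3599 rose with 4 added, 3728 with the replicate block and 5532 with array weights. When tumor 1 and control 2 were left out 4118 rose, against 3677 in the main fit. Leaving out 1 array gave 10 to 18 falls (10 without tumor 3) and 0 to 4 rises (4 without control 2). This was 5 to 6 falls and 0 to 0 rises for Ugt, 4 to 10 and 0 to 3 for glutathione transferases, and 1 to 2 and 0 to 1 for Sult. Of all 11413 tested genes 991 to 1678 fell and 2651 to 4068 rose when 1 array was left out. Among these, 1040 fell without tumor 3 and 3546 rose without control 2. Without control 2 Mgst2 differed by 1.20 (adjusted p = 0.0410), and without tumor 1 by 1.17 (adjusted p = 0.0371).

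Of genes that did not pass, some passed as falls with another scaling, as given above, and some turned sign. With median scaling Gstm2 was -0.10, Gstm6 -0.41, Gsto1 -0.23, Gstp2 -0.32, Mgst1 -0.69 (adjusted p = 0.0435) and Sult1a1 -0.52. With cyclic loess Gstm6 was -0.32, Gstp2 -0.32 and Sult1a1 -0.07; with quantile normalization Gstm6 was -0.26 and Gstp2 -0.27; with normexp and quantile normalization Gstm6 was -0.16, Gstp2 -0.08 and Sult1a1 -0.01. At 4 months alone Sult1a1 was -0.05. Leaving out 1 array gave -0.24 (without tumor 2) to 0.54 for Gstp2, -0.08 (without control 3) to 0.34 for Mgst1 and -0.13 (without control 1) to 0.68 for Sult1a1, which was -0.04 without tumor 2 or control 3. The cause was not tested.

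The deviations of same-numbered arrays correlated by 0.208, 0.197, 0.113 and 0.0656, over 0.1 in 3 of 4 pairs, and 3 of 4 tumors and 2 of 4 controls correlated best with their own number (tumor 2 did so with control 4, by 0.282). This is a hint of pairing from the data only, since the labels state none and 1 pair was not over 0.1, so the samples were not treated as paired. With the replicate block 15 members fell, Mgst2 passed (1.00, adjusted p = 0.0119) and Mgst3 did not (-1.38, adjusted p = 0.0562). Values near background limit Ugt2b36, Ugt8a and Ugt1a6a, whose intensities were under background in 1 to 3 tumors. They also limit the folds of Ugt3a1 and Ugt3a2, which were above background in every tumor but close to the limit in tumor 3.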
